A study of Mus musculus with 6 samples.

Results

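The cells described here are P2+CD4+ T cells of uveitis dataset 2, a single-cell TCR library of T cells from lymph nodes (LN) of AireGW/+ Lyn-/- mice with uveitis. They were split by how often their TCR was found. A cell was counted when it had a productive TCR alpha chain (TRA) and a productive TCR beta chain (TRB), and a clonotype joined the cells whose TRA and TRB were alike in V gene, in J gene and base for base in the CDR3. Clonotypes of 2 or more cells were called expanded, and clonotypes of 1 cell were called single-cell clonotypes. The classes were therefore chosen by the number of cells per clonotype in this library, and the clonotype sizes are given only as a description. Of the 365 barcodes of the library, 324 had both chains. Of these cells, 218 belonged to 36 expanded clonotypes and 106 to as many single-cell clonotypes, so that the expanded class held 67.3% of the cells (95% Clopper-Pearson interval 61.9 to 72.4%). The 3 TCR libraries of the series held 970 such cells in all.

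The series compared T cells that bind a tetramer of the MHC class II molecule I-Ab with P2, a peptide of the retinal protein IRBP, between mice with and without uveitis, an inflammation of the eye. All mice carried 1 copy of AireGW, a mutant allele of the thymic regulator Aire, and lacked Lyn, a Src family kinase, and they were 9 wk old. There were 2 datasets with uveitis, from pools of 7 and 8 mice, and 1 without uveitis, from a pool of 16 mice. The sources used here do not settle which of them had 7. The cells of a pool carry no label of the mouse they came from, so expansion within 1 mouse and the same receptor in several mice cannot be told apart. Each library is 1 sample, so the classes are described without tests. Shares are followed by their Clopper-Pearson and differences by their Newcombe 95% interval in parentheses. Both cover counting error only and not the variation between mice. Cells of 1 clonotype carry copies of 1 receptor and are not independent, so intervals over cells are narrower than the clonotypes warrant, and most measures are therefore also given over clonotypes.

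The files list contigs, which are assembled TCR transcripts, with the counts of their reads and of their unique molecular identifiers (UMIs), each of which marks 1 captured RNA molecule. Uveitis dataset 2 held 800 contigs with 7439 UMIs, against 5302 in uveitis dataset 1 and 21408 without uveitis. None of its contigs was of an immunoglobulin, TCR gamma or TCR delta chain (0 of 800). CD4 itself was not measured in these files. It shared 0 barcodes with uveitis dataset 1 and 1 with the dataset without uveitis, and the contigs of that barcode had no CDR3 in common.

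As background, a TCR is joined in the thymus from gene segments. The alpha chain is made from a V and a J segment, and the beta chain from a V, a D and a J segment. Bases are trimmed and added at random where segments meet, so that this junction, the CDR3, is the most variable piece of the receptor and the one that touches the peptide most. When a T cell is activated it divides, and its daughters keep both chains, which is why cells with identical nucleotide sequences in both chains are read as a clone. A T cell can rearrange its TRA locus on both chromosomes and keep both products, whereas a second productive TRB is held to be rarer.

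TRAV9 and TRAJ31 made up the alpha chains of 3 of the 5 largest clonotypes. The plot of clonotype sizes shows that the sizes fell from 37 and 34 cells through 2 clonotypes of 16 and 1 of 11 to 8 clonotypes of 5 to 7 cells. The remaining 23 expanded clonotypes held 2 to 4 cells, and 16 of them held 2. The other 2 of the 5 clonotypes of more than 10 cells joined TRAV12-2 to TRAJ22 and TRAV7-1 to TRAJ33. The CDR3 sequences of these 5 clonotypes are shown, because they held 114 of the 324 cells. They are written 5′ to 3′ as the files give them, and capitals mark the bases that matched neither the germline V nor the germline J segment named for the chain.
37 cells, TRAV9-4 and TRAJ31: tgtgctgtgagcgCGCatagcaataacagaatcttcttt
37 cells, TRBV31 and TRBJ1-3: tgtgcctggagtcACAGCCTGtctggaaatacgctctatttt
34 cells, TRAV9-1 and TRAJ31: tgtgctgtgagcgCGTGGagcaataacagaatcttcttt
34 cells, TRBV12-2 and TRBJ2-3: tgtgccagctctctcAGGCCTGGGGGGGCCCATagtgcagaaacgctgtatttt
16 cells, TRAV9-4 and TRAJ31: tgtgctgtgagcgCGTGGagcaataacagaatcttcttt
16 cells, TRBV19 and TRBJ1-3: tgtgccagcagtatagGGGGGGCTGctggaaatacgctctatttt
16 cells, TRAV12-2 and TRAJ22: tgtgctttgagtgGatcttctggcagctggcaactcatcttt
16 cells, TRBV4 and TRBJ2-7: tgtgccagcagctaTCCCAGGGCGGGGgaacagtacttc
11 cells, TRAV7-1 and TRAJ33: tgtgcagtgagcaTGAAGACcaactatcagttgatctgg
11 cells, TRBV13-1 and TRBJ2-7: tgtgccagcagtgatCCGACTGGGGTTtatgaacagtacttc

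**Figure D1:**
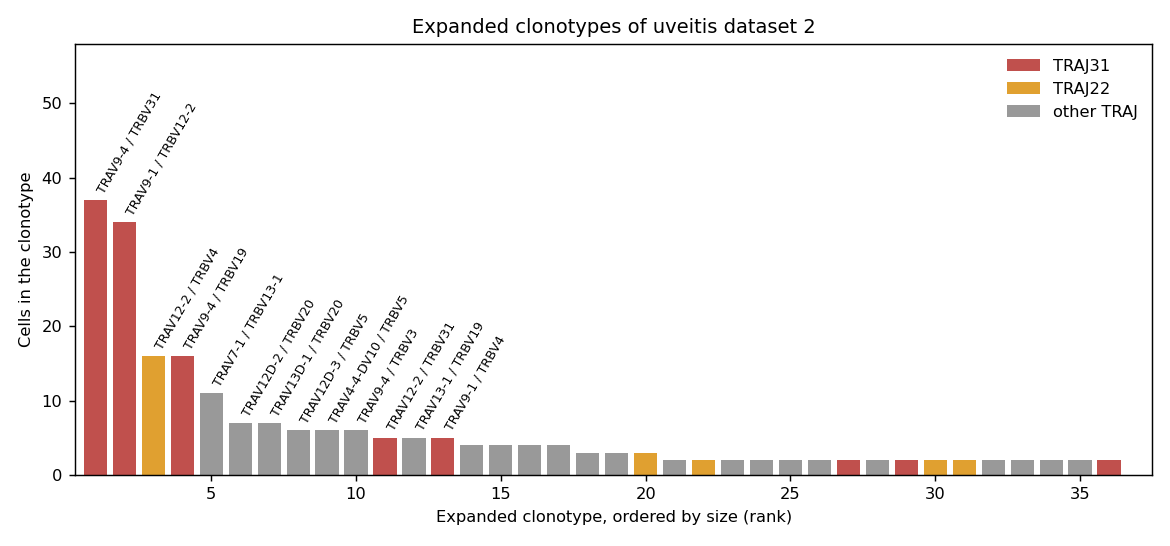
Number of cells (y axis) in each of the 36 expanded clonotypes of uveitis dataset 2, ordered by size (x axis) and coloured by the J gene of the alpha chain; the V genes of both chains are written over clonotypes of 5 or more cells. The 2 largest clonotypes, of 37 and 34 cells, both use TRAJ31, and 16 of the 36 clonotypes hold 2 cells.

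TRAJ31 lies at chr14:54187895-54187951 on the plus strand of GRCm38, and TRAV9-1 and TRAV9-4 at chr14:53488045-53488567 and chr14:53676141-53676630 on the same strand. TRBJ1-3 lies at chr6:41534323-41534376 on the plus strand, and TRBV31 at chr6:41557691-41558452 on the minus strand, downstream of the J segments. The 34-cell clonotype and the 16-cell clonotype of TRBV19 have 1 CDR3α, base for base, although the files name TRAV9-1 for one and TRAV9-4 for the other. The same CDR3α was found in 59 cells of 6 clonotypes, 4 of them expanded and 2 single-cell, each defined by a different TRB. For 2 of the 6, both defining TRB were found together in 24 of their 39 cells, as described below. The 2 single-cell clonotypes had this CDR3α on 1 and 2 UMIs, and their TRB were those of expanded clonotypes of 6 and 16 cells. The 6 are therefore not 6 separate pairings. The files named TRAV9-1, TRAV9-4 or TRAV9D-1 for this CDR3α. These TRAV9 genes are close copies, so the choice between their names may not be certain. The CDR3α of the 37-cell clonotype was found with 1 TRB only.

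The other 8 clonotypes of 5 or more cells used varied genes. The 2 of 7 cells joined TRAV12D-2 and TRAJ15 to TRBV20 and TRBJ2-3, and TRAV13D-1 and TRAJ50 to TRBV20 and TRBJ1-4. The 3 of 6 cells joined TRAV12D-3 and TRAJ23 to TRBV5 and TRBJ2-1, TRAV4-4-DV10 and TRAJ43 to TRBV5 and TRBJ1-1, and TRAV9-4 and TRAJ43 to TRBV3 and TRBJ2-7. The 3 of 5 cells joined TRAV12-2 and TRAJ31 to TRBV31 and TRBJ1-1, TRAV13-1 and TRAJ38 to TRBV19 and TRBJ1-3, and TRAV9-1 and TRAJ31 to TRBV4 and TRBJ2-2. All of them except the clonotypes of TRAJ31 with TRBV31 and of TRAJ38 had a CDR3α of 13 codons.

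TRAJ31 was the J segment that differed most between the classes. It was used by 103 of the 218 cells of expanded clonotypes, or 47.2% (40.5 to 54.1%), and by 10 of the 106 single-cell clonotypes, or 9.43% (4.62 to 16.7%). The difference of 37.8 percentage points (28.2 to 45.7) came mainly from 3 clonotypes, which held 87 of the 113 TRAJ31 cells. Counted by clonotype, TRAJ31 was in 8 of 36 expanded clonotypes, or 22.2% (10.1 to 39.2%), and the difference was 12.8 points (0.127 to 29.2). The 8 include the 34-cell clonotype and the 5-cell clonotype of TRBV4. These have the same TRA and, in 24 of their 39 cells, both TRB, so they may be 1 clone counted as 2. Joined, they would lower this difference, whose interval barely leaves out 0. Another 2 of the 8, of 2 cells each, joined TRAV6-6 and TRAV7N-4 to TRAJ31. Their CDR3β was the same base for base, and their median TRA UMIs were 1.5 and 2, so the 8 are not 8 unrelated receptors. Among clonotypes of 2 to 7 cells TRAJ31 was in 5 of 31, or 16.1%, between the shares of the 5 largest (3 of 5) and the single-cell clonotypes. Within this range the share did not follow clonotype size. TRAJ31 was in 3 of 16 clonotypes of 2 cells, 0 of 7 of 3 or 4 cells and 2 of 8 of 5 to 7 cells. TRAJ31 was also the most used TRAJ among the single-cell clonotypes.

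The V segment joined to TRAJ31 was in most cases of the TRAV9 family. TRAV9 with TRAJ31 was found in 94 expanded cells of 5 clonotypes and in 7 single-cell clonotypes, which leaves 3 expanded clonotypes and 3 single-cell clonotypes of TRAJ31 with other V segments. By clonotype the combination was in 13.9% of the expanded (4.67 to 29.5%) and 6.60% of the single-cell clonotypes (2.70 to 13.1%), a difference of 7.28 points whose interval includes 0 (−2.81 to 22.4). By cells it was in 43.1% and 6.60%. The TRAJ31 share in uveitis dataset 1 was 17.6% of expanded and 9.60% of single cells, and without uveitis it was in 12 of 80 expanded cells and 4.62% of single cells. The expanded class thus had the higher TRAJ31 share of cells in all 3 datasets, by 37.8, 8.05 (−2.28 to 21.3) and 10.4 points (3.67 to 19.95). The interval of uveitis dataset 1 includes 0. By clonotype the difference was 13.5 points (−2.75 to 40.95) in uveitis dataset 1 and 9.67 points (0.0195 to 30.1) without uveitis.

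**Figure D2:**
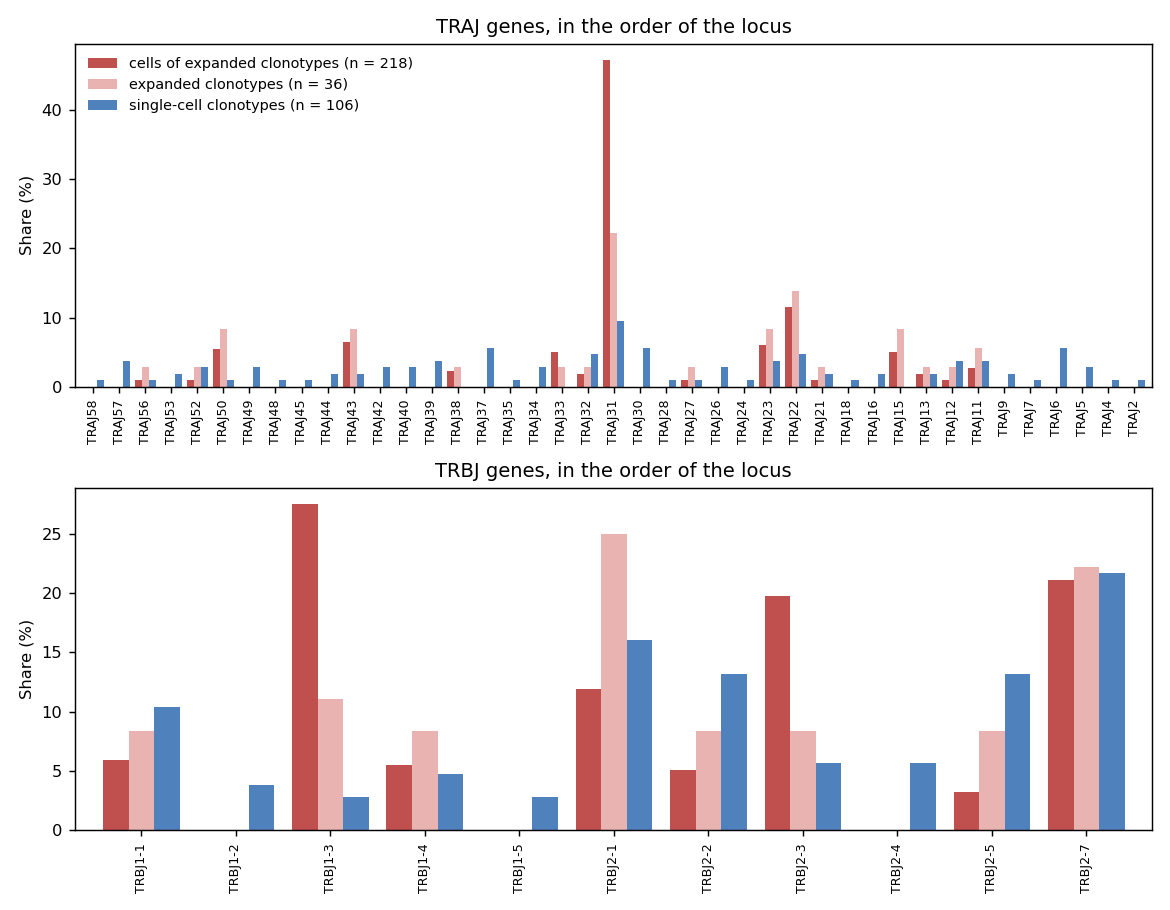
Share in percent (y axis) of each TRAJ gene (top) and TRBJ gene (bottom), in the order of the locus (x axis), among the 218 cells of expanded clonotypes, the 36 expanded clonotypes and the 106 single-cell clonotypes. TRAJ31 stands at 47.2%, 22.2% and 9.43%, and TRBJ1-3 at 27.5%, 11.1% and 2.83%.

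Fewer J segments were used by the expanded clonotypes than by the more numerous single-cell clonotypes. Of the 41 TRAJ genes seen, 38 were in single-cell clonotypes and 16 in expanded clonotypes, and 3 were in expanded clonotypes alone. TRAJ22 followed TRAJ31 among the expanded clonotypes, with 5 of 36 (13.9%, 4.67 to 29.5%) against 5 of 106 single-cell clonotypes (4.72%, 1.55 to 10.7%). By cells, TRAJ22 made up 11.5% of the expanded class, and TRAJ43 6.42% against 1.89% of single cells. TRAJ15 was in 3 expanded clonotypes and in 0 of 106 single-cell clonotypes, which allows a share of up to 2.83%. TRAJ30 and TRAJ37, each in 6 single-cell clonotypes, were in 0 of 36 expanded clonotypes, which allows up to 8.33%.

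The J segments of the beta chain lie in 2 clusters, each behind its own D segment. TRBJ2 genes were used by 133 of 218 expanded cells, or 61.0% (54.2 to 67.5%), and by 80 of 106 single cells, or 75.5% (66.2 to 83.3%), a difference of −14.5 points (−24.2 to −3.53). This difference rested on the largest clonotype, whose TRB uses TRBJ1-3: without its 37 cells it was −1.99 points, and by clonotype it was −3.25 points (−21.0 to 11.7). TRBJ1-3 itself was in 60 expanded cells (27.5%, 21.7 to 33.96%) of 4 clonotypes, of 37, 16, 5 and 2 cells, and in 3 single-cell clonotypes (2.83%, 0.588 to 8.05%). By clonotype its difference was 8.28 points (−0.181 to 22.6). TRBJ2-7, in 21.1% of expanded cells and 21.7% of single cells, differed by −0.597 points (−10.6 to 8.39). TRBJ2-3 was in 19.7% of expanded and 5.66% of single cells, but in 3 of 36 expanded clonotypes (8.33%), and 34 of its 43 expanded cells were of 1 clonotype. TRBJ2-1 was the most used TRBJ among the expanded clonotypes, in 9 of 36 against 17 of 106 (16.04%) single-cell clonotypes, among which TRBJ2-7 led, and TRBJ2-2 was in 3 of 36 against 14 of 106 (13.2%). In uveitis dataset 1 the TRBJ2 difference by cells went the other way, at 11.4 points (−1.89 to 21.7). Without uveitis it was −4.10 points (−15.98 to 7.06).

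V segments were compared by clonotype. The TRAV9 family led in both classes, with 14 of 36 expanded clonotypes (38.9%, 23.1 to 56.5%) and 28 of 106 single-cell clonotypes (26.4%, 18.3 to 35.9%). The difference of 12.5 points had an interval that includes 0 (−4.32 to 30.4). By cells the family made up 54.6% of the expanded class, a difference of 28.2 points (16.9 to 38.1). TRAV9-1 was in 8 expanded clonotypes and 14 single-cell clonotypes, TRAV9-4 in 4 and 3, and TRAV9-2 in 1 and 6. TRAV12 was the next family, in 7 of 36 (19.4%) and 12 of 106 (11.3%), with TRAV12-2 in 3 expanded and 3 single-cell clonotypes and TRAV12D-2 in 2 and 7. TRAV7 was in 4 and 10, and TRAV6 in 3 and 12. Of 49 TRAV genes, 19 were used by expanded and 46 by single-cell clonotypes. In uveitis dataset 1 the TRAV9 family was in 38.5% of expanded and 23.2% of single-cell clonotypes, and without uveitis in 33.3% and 9.23%. The difference by clonotype was thus 12.5, 15.3 (−7.03 to 42.1) and 24.1 points (7.63 to 45.5) in the 3 datasets. The interval includes 0 in both datasets with uveitis.

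TRBV20 was in 7 expanded clonotypes (19.4%, 8.19 to 36.02%) against 9 single-cell clonotypes (8.49%, 3.96 to 15.5%), a difference of 10.9 points (−0.921 to 27.03). TRBV5 followed, in 5 of 36 and 8 of 106, and TRBV13-2 in 4 and 13. TRBV31, the V segment of the largest clonotype, was in 4 of 36 (11.1%, 3.11 to 26.1%) and 6 of 106 (5.66%, 2.11 to 11.9%), a difference of 5.45 points (−3.64 to 19.98). Counted by cells this became 22.02% against 5.66%. Among single-cell clonotypes TRBV3 led with 16 of 106 (15.1%, 8.88 to 23.4%), against 3 of 36 expanded clonotypes (8.33%, 1.75 to 22.5%), followed by TRBV4 with 14 of 106 against 3 of 36. None of the named V genes had an interval of the difference by clonotype that left out 0. TRBV12-2 was used by the 34-cell clonotype and by no single-cell clonotype (0 of 106, which allows up to 2.83%). TRBV3 stood the other way round in uveitis dataset 1, at 23.1% of expanded and 10.4% of single-cell clonotypes. TRBV31 was there in 0 of 13 expanded clonotypes, which allows up to 23.1%, and in 3.20% of single-cell clonotypes. Without uveitis TRBV31 was in 9.52% and 6.15%.

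The mean CDR3β was longer in the expanded class, and the mean CDR3α slightly shorter. The mean CDR3β was 14.8 ± 1.79 codons in expanded cells (SD, n = 218 cells) and 13.8 ± 1.53 in single cells (SD, n = 106), a difference of 1.07 codons. Here 36 expanded cells of 2 clonotypes had 18 codons, and 34 of these were of 1 clonotype, without which the difference was 0.478 codons. Over clonotypes the expanded mean was 14.5 ± 1.65 (SD, n = 36) and the difference 0.755. At the short end, 2 of 36 expanded clonotypes (5.56%, 0.680 to 18.7%) and 20 of 106 single-cell clonotypes (18.9%, 11.9 to 27.6%) had a CDR3β of 12 codons or fewer, a difference of −13.3 points (−22.7 to 0.769). The mean CDR3β was longer in the expanded class of the other datasets too, by 0.397 codons in uveitis dataset 1 and by 0.331 without uveitis.

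The mean CDR3α was 13.2 ± 0.793 codons in expanded cells and 13.6 ± 1.09 in single cells (SD, n = 218 and 106 cells), a difference of −0.337 codons. Over expanded clonotypes it was 13.4 ± 1.05 (SD, n = 36), a difference of −0.149, so that the narrower spread of the expanded cells was not seen among clonotypes. A length of 13 codons was found in 158 of 218 expanded cells (72.5%, 66.0 to 78.3%), in 19 of 36 expanded clonotypes (52.8%, 35.5 to 69.6%) and in 40 of 106 single-cell clonotypes (37.7%, 28.5 to 47.7%). The difference by clonotype was 15.04 points (−3.37 to 32.6). The mean was lower in the expanded class of uveitis dataset 1 (−0.392 codons) and without uveitis (−0.653 codons) as well. Without uveitis the expanded cells had an SD of 2.50 codons and a shortest CDR3α of 5 codons. The share of 13 codons differed little by clonotype there, by 0.879 points (−14.6 to 22.7), and in uveitis dataset 1, by 0.0615 points (−22.5 to 27.3).

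**Figure D3:**
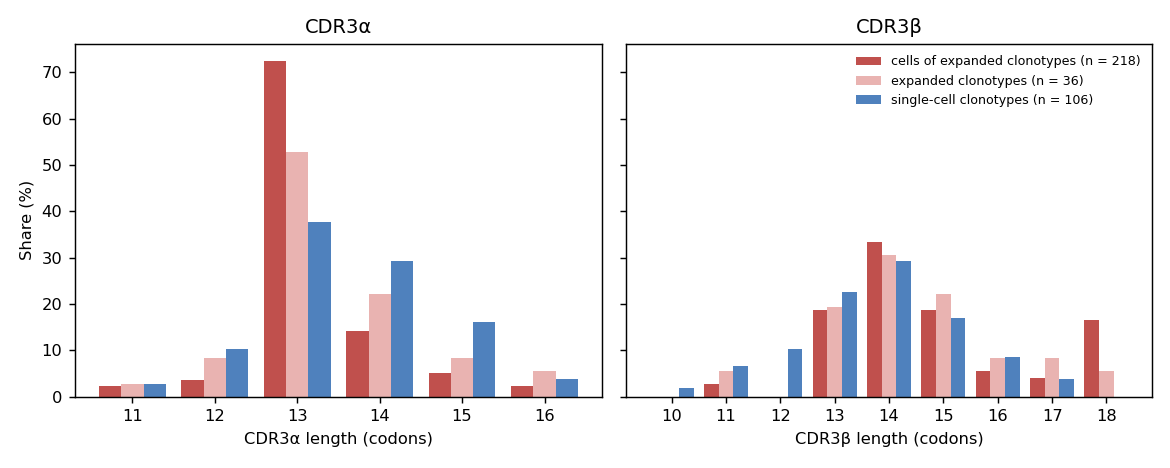
Share in percent (y axis) of each CDR3 length in codons (x axis) for the alpha chain (left) and beta chain (right), among the 218 cells of expanded clonotypes, the 36 expanded clonotypes and the 106 single-cell clonotypes. At 13 codons the CDR3α shares are 72.5%, 52.8% and 37.7%, and the CDR3β bars at 18 codons are 16.5% of expanded cells, 5.56% of expanded clonotypes and 0% of single cells.

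The bases of each CDR3 that the named V and J segments do not account for were counted with the germline sequences of GENCODE, which held all 118 V and J genes used in this library. The count is not one of added bases: matches can arise by chance, a wrong V name raises it, and in the beta chain it includes the D segment. The CDR3α of the 16-cell TRAV12-2 clonotype, for example, has 1 such base under that name and 8 under the name TRAV12D-3, which the files give it in a 2-cell clonotype. Expanded clonotypes had 3.72 ± 1.97 such bases in CDR3α (SD, n = 36) and single-cell clonotypes 2.82 ± 1.84 (SD, n = 106). In CDR3β the means were 11.9 ± 4.40 and 10.2 ± 4.25. The differences by clonotype were thus 0.902 bases in CDR3α and 1.69 in CDR3β. They were 0.0172 and 0.318 in uveitis dataset 1, and without uveitis they went the other way, at −0.729 and −0.263. A CDR3α made up fully of V and J bases was found in 9 of 106 single-cell clonotypes (8.49%, 3.96 to 15.5%) and in 0 of 36 expanded clonotypes, which allows up to 8.33% by 3 counts and 9.74% by the Clopper-Pearson interval. The difference of −8.49 points by clonotype had an interval that includes 0 (−15.4 to 1.93). Such chains in uveitis dataset 1 were in 10.4% of single-cell clonotypes and in 0 of 13 expanded ones, whereas without uveitis they were in 14.1% of single-cell and 28.6% of expanded clonotypes.

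The D segment named for the beta chain also differed. TRBD2 was named for 19 of 36 expanded clonotypes (52.8%, 35.5 to 69.6%) and 33 of 106 single-cell clonotypes (31.1%, 22.5 to 40.9%), and TRBD1 for 8 (22.2%) and 45 (42.5%). The differences by clonotype were 21.7 points (3.31 to 38.9) for TRBD2 and −20.2 points (−34.4 to −2.00) for TRBD1. D segments are short and their names uncertain: TRBD2 lies downstream of the TRBJ1 genes, at chr6:41542163-41542176, yet it was named together with a TRBJ1 gene in 4 expanded clonotypes and 1 single-cell clonotype. No D segment was named for 9 expanded and 28 single-cell clonotypes. Without uveitis the differences by clonotype were 30.9 points for TRBD2 and −24.5 for TRBD1, and in uveitis dataset 1 they were −6.83 and 4.06.

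Chain UMIs differed little between the classes. The TRA contig of a cell rested on a median of 5 UMIs in the expanded class (lowest 1, highest 50) and of 4 in the single-cell class (lowest 1, highest 25), and the quartiles were 3 and 8 against 2 and 7.75 UMIs. For the TRB contig the medians were 10.5 UMIs (1 to 99) and 9.5 (1 to 57). The classes overlapped over almost their whole range. A TRA resting on 1 UMI was found in 7.34% of expanded cells (4.25 to 11.7%) and 8.49% of single cells (3.96 to 15.5%), a difference of −1.15 points (−8.55 to 4.66). A TRB on 1 UMI was found in 2 expanded and 3 single cells.

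Medians of single expanded clonotypes lay further apart than the 2 class medians, but each rests on 2 to 37 cells, against 218 and 106. Medians of fewer cells spread more widely, so whether the clonotypes differ in their UMIs was not tested. Over the 13 clonotypes of 5 or more cells, the median TRA count ran from 3 UMIs, in the clonotypes of TRAV9-4 with TRBV31 and of TRAV9-4 with TRBV3, to 11 UMIs in that of TRAV12-2 with TRBV31. The median TRB count ran from 4 UMIs in the 16-cell clonotype of TRAV12-2 with TRBV4 to 18 in that of TRAV12-2 with TRBV31. The 37-cell clonotype had medians of 3 TRA UMIs (1 to 16) and 13 TRB UMIs (2 to 99), and the 34-cell clonotype of 4 (1 to 18) and 13 (2 to 57). The 16-cell clonotype of TRAV9-4 with TRBV19 had 5.5 and 9, and the 11-cell clonotype 6 and 11. The medians of the clonotypes of 2 to 4 cells ran from 1.5 to 28.5 TRA UMIs and from 3 to 46.5 TRB UMIs.

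**Figure D4:**
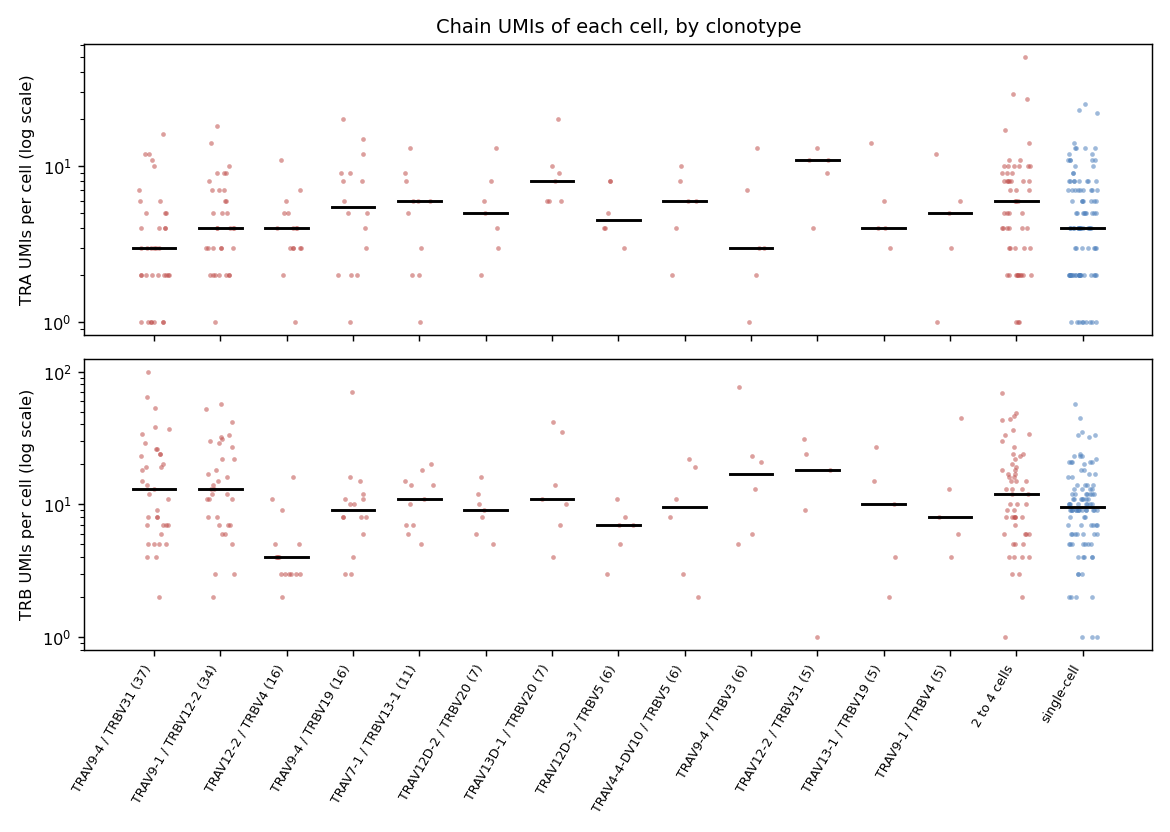
TRA (top) and TRB (bottom) UMIs of each cell (y axis, log scale) in the clonotypes of 5 or more cells, with the number of cells in parentheses, in all clonotypes of 2 to 4 cells, and in the single-cell clonotypes (x axis); each point is 1 cell and each bar a median. The 37-cell clonotype lies lowest for TRA together with that of TRAV9-4 and TRBV3, at 3 UMIs, and the 16-cell clonotype of TRAV12-2 and TRBV4 lowest for TRB, at 4 UMIs.

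A second productive TRA was rarer among the cells of the expanded class. It was found in 10 of 218 expanded cells, or 4.59% (2.22 to 8.27%), and in 17 of 106 single cells, or 16.04% (9.63 to 24.4%), a difference of −11.5 points (−19.9 to −4.62). None of the 114 cells of the 5 largest clonotypes had one, and 10 of the 104 cells of clonotypes of 2 to 7 cells did (9.62%). The share did not fall steadily with clonotype size: it was 2 of 32 cells in clonotypes of 2, 4 of 25 in those of 3 or 4, which is near the share of single cells, and 4 of 47 in those of 5 to 7. At least 1 such cell was found in 6 of the 36 expanded clonotypes, beside 17 of the 106 single-cell clonotypes, and 2 of the 6 had 3 each. With each expanded clonotype counted once, by the share of its cells, the mean was 7.50% and the difference −8.54 points. The interval over cells given above treats the cells of 1 clonotype as independent. With each cell thinned to 10 UMIs of productive chains, which left out 53 expanded and 18 single cells, the shares were 5.10% and 16.8%, and in the same cells unthinned 6.06% and 19.3%. The same direction was seen in uveitis dataset 1, in 4 of 51 expanded against 15 of 125 single cells, and without uveitis, in 12 of 80 against 66 of 390. There the differences were −4.16 points (−12.5 to 7.45) and −1.92 points (−9.33 to 8.08), and both intervals include 0. Because the chain with the most UMIs defined the clonotype, a cell with a further chain can be set apart from its clone. Of the 21 single cells with a further chain, 2 would have joined an expanded clonotype by another combination of their chains. Of the 17 further TRA and 4 further TRB contigs of single cells, 4 TRA and 0 TRB were the defining chain of an expanded clonotype. The further contigs of single cells had medians of 3 UMIs for TRA and 3.5 for TRB.

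A second productive TRB went the other way in dataset 2, and nearly all of it was 1 pair of chains. It was found in 25 of 218 expanded cells, or 11.5% (7.56 to 16.5%), and in 4 of 106 single cells, or 3.77% (1.04 to 9.38%). In 24 of the 25 expanded cells the pair was TRBV12-2 with TRBJ2-3, shown above, and a TRBV4 chain, with the same TRAV9-1 and TRAJ31 alpha chain in all 24.
Second TRB of the pair, TRBV4 and TRBJ2-2: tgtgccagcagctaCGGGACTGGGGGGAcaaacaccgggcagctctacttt
The TRBV12-2 chain had more UMIs in 21 of these cells, which made them cells of the 34-cell clonotype, and the TRBV4 chain in the other 3, which made them cells of a 5-cell clonotype. The 2 clonotypes thus share a TRA and, in 24 of their 39 cells, both TRB. Of the remaining cells, 13 had the TRBV12-2 chain alone and 2 the TRBV4 chain alone with this TRA. In cells with both, the medians were 13.5 UMIs for TRBV12-2 and 6.5 for TRBV4. The pair was also seen in 3 barcodes without a TRA. Apart from the 24 cells, 1 of 194 expanded cells had a second TRB (0.515%, 0.0131 to 2.84%), so that the difference of 7.69 points (1.11 to 13.1) between the classes became −3.26 points. A second TRB was in 1.96% of expanded and 7.20% of single cells of uveitis dataset 1, and without uveitis in 2.50% and 4.10%. Droplets with more than 1 cell were not removed here, and their part in the second chains was not tested.

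**Figure D5:**
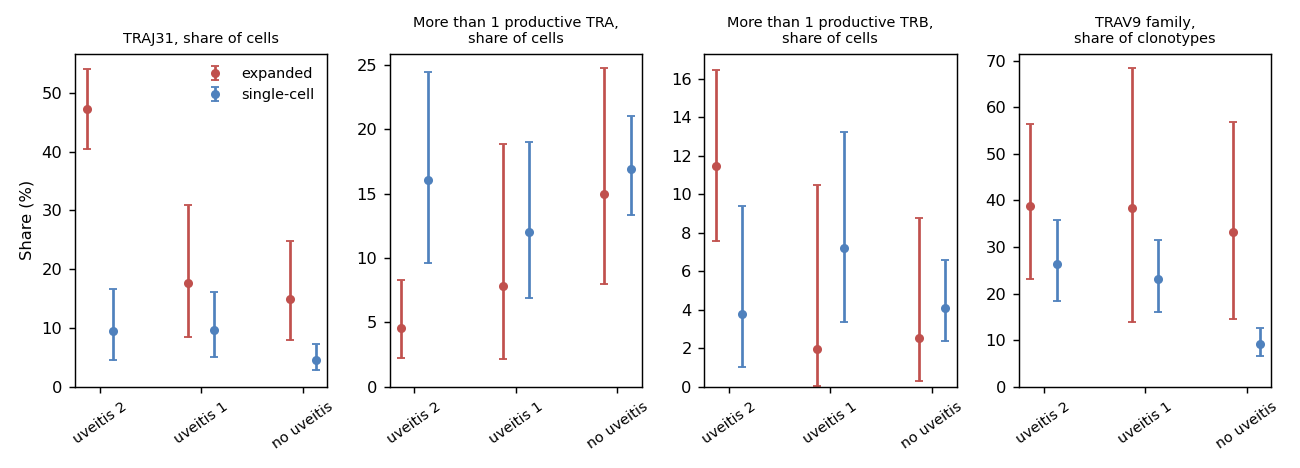
Share in percent (y axis) of cells with TRAJ31, with more than 1 productive TRA and with more than 1 productive TRB, and of clonotypes of the TRAV9 family, in the expanded and single-cell class of each of the 3 datasets (x axis); bars are Clopper-Pearson 95% intervals, which cover counting error only. TRAJ31 and TRAV9 are higher in the expanded class of all 3 datasets, a second TRA is lower in all 3, and a second TRB is higher only in that of uveitis dataset 2 (11.5% against 3.77%).

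Some single-cell clonotypes shared a chain with an expanded clonotype. Of the 106 single-cell clonotypes, 12 (11.3%, 5.99 to 18.9%) had a TRA or TRB identical in V gene, J gene and CDR3 nucleotides to that of an expanded clonotype. The TRA was shared by 6, the TRB by 9, and 3 had both, with the TRA of 1 expanded clonotype and the TRB of another. Sharing among the single-cell clonotypes themselves was found for the TRA of 4 (3.77%) and the TRB of 14 (13.2%, 7.41 to 21.2%), beside 8.49% (3.96 to 15.5%) for a TRB shared with an expanded one. In uveitis dataset 1 the share with a chain of an expanded clonotype was 10.4%, and without uveitis 2.56%. The 12 had a median of 3 TRA UMIs against 4.5 in the other 94, and 9 TRB UMIs against 10. Their TRA rested on 1 UMI in 2 of 12, and 3 of 12 had a further chain. Apart from chains already shown, the CDR3 that a clonotype of 5 or more cells shared with another clonotype are these.
TRBV5 and TRBJ2-1, in clonotypes of 6 and 2 cells: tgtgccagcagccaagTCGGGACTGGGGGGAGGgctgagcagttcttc
TRBV5 and TRBJ1-1, in a clonotype of 6 cells and 2 single cells: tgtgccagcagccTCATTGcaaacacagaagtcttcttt
TRBV3 and TRBJ2-7, in a clonotype of 6 cells and 1 single cell: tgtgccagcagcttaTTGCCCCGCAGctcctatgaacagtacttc
TRAV12-2 and TRAJ31, in a clonotype of 5 cells and 1 single cell: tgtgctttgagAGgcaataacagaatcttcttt
The alpha chain of TRAV12-2 and TRAJ31 was found in the single cell with the TRB of the 16-cell TRBV4 clonotype, and the TRBV3 chain in the single cell with the TRA of the 16-cell TRBV19 clonotype. These were 2 of the 3 single cells with both chains from expanded clonotypes. The third paired the 34-cell clonotype's TRA, on 2 UMIs, with the TRB of the 16-cell TRBV4 clonotype. Among the expanded clonotypes themselves, 2 of 36 shared a TRA and 4 of 36 a TRB with another expanded clonotype under the same V and J names. The 2 with a shared TRA are the 34-cell clonotype and the 5-cell clonotype of TRBV4, which had both TRB in 24 of their 39 cells. The 2-cell clonotype that had the TRBV5 and TRBJ2-1 chain also had the CDR3α of the 16-cell TRAV12-2 clonotype, base for base, under the name TRAV12D-3, so both of its CDR3 were those of larger clonotypes.

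Several expanded clonotypes resembled each other without sharing a chain. Pairs of clonotypes were counted as near when both CDR3 had the same number of residues and differed at 2 residues or fewer in each chain. This held for 6 of the 630 pairs of expanded clonotypes, 10 of the 3816 pairs of an expanded and a single-cell clonotype, and 3 of the 5565 pairs of single-cell clonotypes, or 9.52, 2.62 and 0.539 per 1000 pairs. A clonotype enters many pairs, so no interval is given. The limit of 2 residues was set after the data had been seen. In uveitis dataset 1 near pairs were 0 of 78, 1 of 1625 and 3 of 7750, and without uveitis 0 of 210, 1 of 8190 and 3 of 75855. The alpha chain alone was near in 39.7 per 1000 expanded pairs and 4.67 per 1000 single-cell pairs of dataset 2, and the beta chain alone in 14.3 and 4.13.

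The 6 near pairs of expanded clonotypes fell into 2 groups of 3. In the first, different TRAV genes were joined to TRAJ50, TRBV20 and TRBJ1-4 with 13 codons in CDR3α and 14 in CDR3β. The sequences are shown because chains from 3 V genes end in nearly the same CDR3.
7 cells, TRAV13D-1: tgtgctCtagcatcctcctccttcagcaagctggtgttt
7 cells, TRBV20: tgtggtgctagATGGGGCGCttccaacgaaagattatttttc
3 cells, TRAV4-4-DV10: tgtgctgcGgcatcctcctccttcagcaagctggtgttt
3 cells, TRBV20: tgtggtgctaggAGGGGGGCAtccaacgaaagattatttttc
2 cells, TRAV13-2: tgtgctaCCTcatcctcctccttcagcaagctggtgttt
2 cells, TRBV20: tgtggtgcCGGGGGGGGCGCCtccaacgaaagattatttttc
From the 7-cell clonotype, the 3-cell clonotype differed at 3 bases and 1 residue in CDR3α and at 4 bases and 1 residue in CDR3β. The 2-cell clonotype differed from it at 4 bases and 2 residues in CDR3α and at 5 bases and 2 residues in CDR3β. A single-cell clonotype of TRAV13-2 joined the same J genes and TRBV20, at 3 bases and 2 residues in CDR3α and 7 bases and 3 residues in CDR3β.

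The second group joined TRAV9-1 to TRAJ22 and TRBJ2-5 with 14 codons in both CDR3, and a single-cell clonotype belonged with it.
3 cells, TRAV9-1: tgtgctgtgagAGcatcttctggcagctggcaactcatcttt
3 cells, TRBV26: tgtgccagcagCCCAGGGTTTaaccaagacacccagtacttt
2 cells, TRAV9-1: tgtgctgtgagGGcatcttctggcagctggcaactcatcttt
2 cells, TRBV26: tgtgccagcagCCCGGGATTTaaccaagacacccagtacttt
1 cell, TRAV9D-1: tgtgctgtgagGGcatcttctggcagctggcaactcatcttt
1 cell, TRBV26: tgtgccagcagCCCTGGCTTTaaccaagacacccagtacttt
2 cells, TRAV9-1: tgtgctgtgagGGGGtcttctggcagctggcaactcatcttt
2 cells, TRBV5: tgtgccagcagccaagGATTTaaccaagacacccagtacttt
The 3 TRBV26 clonotypes encode the same residues in both CDR3. From the 3-cell clonotype, both others differ at 1 base in CDR3α and at 2 bases in CDR3β, and none of these bases changes a residue. The TRBV5 clonotype differs from the 3-cell clonotype at 1 residue in each chain. Another kind of likeness was seen between the 16-cell and the 5-cell clonotype of TRBV19 and TRBJ1-3, whose CDR3β differ at 2 bases and 1 residue while their alpha chains use TRAJ31 and TRAJ38.

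CDR3α of expanded clonotypes were found more often in the other datasets than those of single-cell clonotypes. The residues of CDR3α were seen in uveitis dataset 1 for 10 of 36 expanded clonotypes (27.8%, 14.2 to 45.2%), which had 6 different CDR3α, and for 5 of 106 single-cell clonotypes (4.72%, 1.55 to 10.7%). In the dataset without uveitis they were seen for 4 of 36 (11.1%, 3.11 to 26.1%) and 3 of 106 (2.83%, 0.588 to 8.05%). CDR3β was seen in uveitis dataset 1 for 1 of 36 and 0 of 106, and without uveitis for 2 and 3. The CDR3α of 59 cells shown for the 34-cell clonotype was in 2 cells of uveitis dataset 1 and 0 without uveitis, base for base, and that of the 37-cell clonotype in 2 and 3 cells.

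Barcodes that were left out for lack of a chain carried the TRB of expanded clonotypes at about the share of the counted cells. Of the 41 barcodes, 35 had a TRB only and 6 a TRA only. The TRB was that of an expanded clonotype in 26 of 35 barcodes (74.3%, 56.7 to 87.5%), of a single-cell clonotype in 1 and of neither in 8, beside an expanded share of 67.3% among the counted cells, which lies within that interval. The shares of counted cells, here and for the other datasets, go by both chains and not by TRB alone. By TRB alone, 9 single-cell clonotypes of dataset 2 also had the chain of an expanded clonotype. The TRA was that of an expanded clonotype in 3 of the 6. The TRBV31 and TRBJ1-3 chain of the largest clonotype, whose cells had few TRA UMIs, was in 9 of the 26. In uveitis dataset 1 the TRB of such barcodes was that of an expanded clonotype in 9 of 25 (17.97 to 57.5%), beside 28.98% of its counted cells, and without uveitis in 3 of 27 (2.35 to 29.2%), beside 17.02%. The counts of cells per clonotype leave these barcodes out.

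At the border between the classes, the 16 clonotypes of 2 cells had values apart from those of the single-cell clonotypes in some measures only. They did not stand between these and the next larger clonotypes throughout. Clonotypes of 3 or 4 cells had TRAJ31 in 0 of 7 and a mean CDR3β of 14.04 codons, below the means at 2 cells. At 2 cells, TRAJ31 was in 3 of 16 clonotypes (18.8%), against 9.43% of single-cell clonotypes, and a second TRA in 2 of 32 cells (6.25%), against 16.04%. These counts are small, no interval was computed for them, and the differences were not tested. Moreover, 2 of the 3 TRAJ31 clonotypes had the same CDR3β base for base. The mean CDR3β was 14.6 codons against 13.8, and the mean CDR3α was 13.6 in both. The median UMIs were 4.5 against 4 for TRA and 9.5 in both for TRB.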

How the data were processed

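The values are the read and UMI counts, V, D and J genes and CDR3 of each contig, deposited by the authors as whole-number counts without normalization from Cell Ranger, which the submitters' notes name with the build GRCm38. Cells needed a productive contig of TRA and of TRB with V, J and CDR3 named, and where a cell had more, the contig with the highest UMI count (then reads, then name) stood for the chain. The mRNA libraries were not used here. Depth was 7439 UMIs in 365 barcodes. Shares have Clopper-Pearson 95% intervals and differences Newcombe 95% intervals, with no test. A count of 0 is given the share of 3 counts. Free bases were those outside the longest V match from the start and J match from the end of the CDR3 (GENCODE M21 transcripts, GRCm38, last 60 bases of V). The clonotypes and lists were chosen with earlier results of these data known.

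Clonotypes of 5 or more cells were named, with CDR3 printed from 8 cells on or where shared with another clonotype, together with the 3 genes of each kind found in the most cells or clonotypes of each class, ties by name. The groups of like receptors, the D segments, the free bases and the left-out barcodes were described after their values were seen. Alternatives were clonotypes in place of cells, 3 or more cells, no largest clonotype, exactly 1 TRA and 1 TRB, at least 2 UMIs, other definitions of a clonotype, single cells sharing a chain left out, thinning to 10 UMIs, no repeated TRB pair, and TRAV9-1 with TRAV9-4 alone. Leaving out the clonotype of 34 cells was added after seeing the data. The functions were tested on simulated contig tables. Python 3.11.15, pandas 2.3.3, numpy 2.4.6, scipy 1.17.1, statsmodels 0.14.6 and matplotlib 3.10.9 were used.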

Additional observations from a re-analysis of the deposited data

Results flagged for a closer look

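Chain UMIs moved one way in both datasets with uveitis and the other way without uveitis. The median TRA UMIs of expanded over single-cell clonotypes had a ratio of 1.25 in uveitis dataset 2 (5 and 4 UMIs), 1.20 in uveitis dataset 1 (6 and 5) and 0.625 without uveitis (5 and 8). For TRB the ratios were 1.11, 1.45 and 0.938, the last from medians of 15 and 16 UMIs. The difference between the datasets was not tested, and the dataset without uveitis held more UMIs, 21408 against 7439 and 5302.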

How the results depend on the processing

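Of 107 values over 11 results and their alternatives, 98 stayed within the interval or limit set around the reported value (the Newcombe or Clopper-Pearson interval for shares, 0.5 codons for lengths, a ratio of 1.5 for UMIs), 7 moved outside it and 2 turned their direction. Clonotypes defined by CDR3 nucleotides alone gave the same class sizes (218, 36 and 106) and the reported values unchanged. Their values are among the 98 but say nothing about how firm the results are. The TRAJ31 difference of 37.8 points was 12.8 with each clonotype counted a single time, 27.03 without the largest clonotype and 28.1 without the clonotype of 34 cells. The TRBJ2 difference of −14.5 points was −3.25 by clonotype and −1.99 without the largest clonotype. The CDR3β length difference of 1.07 codons was 0.478 without the clonotype of 34 cells. The second TRB difference of 7.69 points was 0.303 by clonotype, −3.26 without the repeated TRB pair and −1.60 without the clonotype of 34 cells. Each of these follows from which cells the alternative leaves out or counts less. The second TRA difference stayed between −13.0 and −7.24 points, and the share of single-cell clonotypes sharing a chain between 7.95 and 13.2%. The UMI ratios of expanded over single cells stayed between 1.0 and 1.31 for TRA and 1.05 and 1.22 for TRB, and the TRA ratio was 1.0 with exactly 1 TRA and 1 TRB per cell and with at least 2 UMIs per contig. The 36 expanded clonotypes limit the precision of every share by clonotype. No paired analysis was possible because each library is 1 pool and no test was made.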
